A study of Mus musculus with 4 samples.

Results

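The cytosolic ribosomal protein genes of mouse spleen were 82 of the 23763 genes in the expression table, and 81 of them were tested, as part of the 16970 genes whose mean reached a value of 1. They were chosen by name: symbols of the Rps and Rpl series, Rplp0 to Rplp2 and Rpsa, with named pseudogenes and the Rps6k kinases left out. By role, 31 encode proteins of the small subunit, 46 proteins of the large subunit, and 5 are paralogues or relatives (Rps27l, Rps4l, Rpl7l1, Rpl22l1 and Rpl39l). The member under the minimum was Rpl39l, with 4 reads in 1 WT library and 0 in the other 3. Another 7 names in the annotation that match the same pattern, Rpl3l among them, were not analysed here.

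The series measured spleen RNA of C57BL/6J mice in a comparison of wild-type animals (WT, 2 libraries) with KLHL3 knock-in animals (KLHL3-KI, 2 libraries), all labelled as treated at baseline only. KLHL3 is the substrate adaptor of a ubiquitin ligase that controls WNK kinases. The knocked-in allele, the cells that carry it, and the animals' age and sex are not stated in the sources used here. RNA was extracted with TRIzol and made into directional libraries after removal of ribosomal RNA. The labels do not say that the libraries of a group come from separate animals, so every p-value below measures only the spread between these libraries, which may be technical.

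Ribosomal proteins assemble with ribosomal RNA into the small and the large subunit of the ribosome, and most are present in a single copy in each ribosome. Their genes are transcribed at high rates in most cells, and their mRNAs begin with a pyrimidine tract that ties their translation to mTOR signalling. In blood formation they are known from Diamond-Blackfan anaemia, in which loss of 1 allele of a ribosomal protein gene impairs red cell production.

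Values are scaled read counts: whole counts of a gene, taken as reads, divided by 1 factor per library. The libraries held 8535483 and 8975415 reads in WT against 9586677 and 10933023 reads in KLHL3-KI, and the ribosomal protein genes took 366669 to 424590 of them in each library. Each log2 fold change is the KLHL3-KI mean minus the WT mean of log2(value + 1), with its standard error (SE), from limma with Benjamini-Hochberg adjustment over all 16970 genes. Klhl3 itself was at 3.02 and 4.67 in WT against 2.53 and 1.36 in KLHL3-KI, which does not check a knock-in whose allele is not given. Cell type markers moved strongly between the groups. All 12 red cell precursor markers rose (summed value 1017 to 1297 in WT, 6474 to 7572 in KLHL3-KI), as did 10 of 10 neutrophil markers (69.96 to 154, then 1457 to 1973) and 10 of 10 cell division genes (724 to 826, then 3606 to 4359.9). Of the B cell markers 9 of 10 fell (3459 to 3604, then 2003 to 2648), of the T cell markers 10 of 11 (573 to 650.3, then 352 to 353), and 1 of 7 red pulp macrophage markers rose. No marker list was at 0 in any library, and the part of these shifts in the results below was not tested. In such bulk RNA, fewer cells of a type and less RNA per cell cannot be told apart.

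Ribosomal protein mRNAs were close to level between the genotypes, with 1 paralogue standing out. Of the 81 tested members 6 rose in KLHL3-KI spleen (7.41%) and 0 fell, where limma called 22.8% of all tested genes in either direction, 15.2% as higher and 7.56% as lower. The 6 were the paralogue Rps27l, the small-subunit gene Rps2, and the large-subunit genes Rpl41, Rpl27, Rpl29 and Rpl7a. Without the adjustment, 13 members were higher and 0 were lower at a limma p under 0.05. Of all 16970 tested genes, 6018 reached that p in either direction. Neither edgeR (4 members higher, beside 2533 of all genes) nor DESeq2 (7 members higher, beside 2022) called a member lower. They called 1355 and 781 of all genes lower. The count of 6 rested on few libraries: it was 2 without WT replicate 1, 1 without WT replicate 2, 3 without KLHL3-KI replicate 1 and 4 without KLHL3-KI replicate 2. Rps27l was the gene called in every one of these.

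The log2 fold changes of the members lay in a narrow band. They had a median of 0.065 (quartiles -0.0054 to 0.16), beside -0.010 (quartiles -0.24 to 0.27) for all tested genes. Of the members, 70 of 81 (86.4%) differed by less than 0.25 in either direction on the log2 scale, beside 8480 of the 16970 tested genes. The 95% interval of the fold change lay within 1.5-fold of no change for 77 of 81 members (95.1%) and for 42.5% of all genes. This held for 74 of the 75 members that did not pass, so most of these were bounded and not only undecided. These intervals cover the spread between libraries as limma models it. The set of all tested genes reaches down to a mean of 1, while most members were far above that. The members were not set beside genes of like level, so the part of expression level in this narrow band was not tested.

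**Figure D1:**
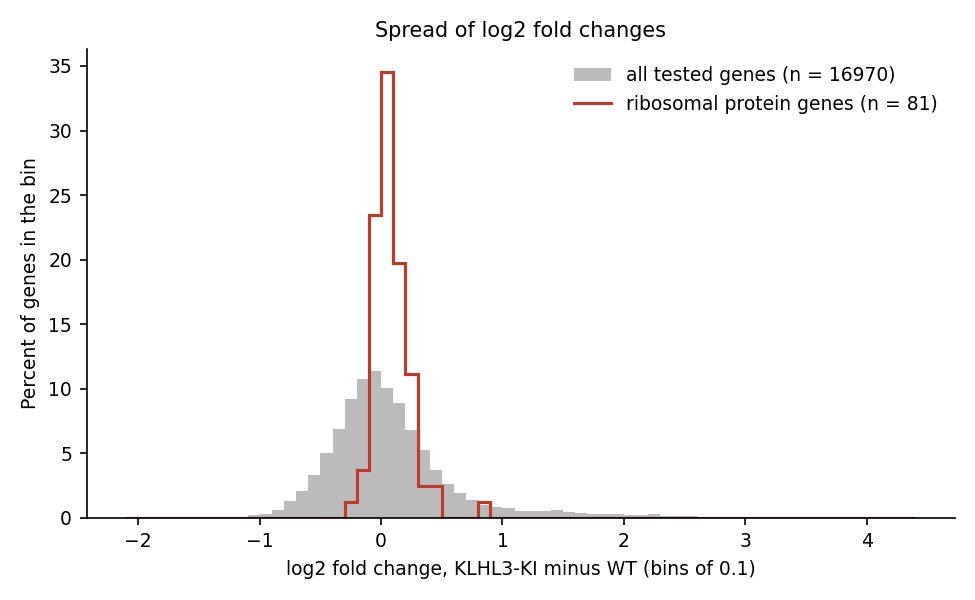
Percent of genes (y axis) in bins of 0.1 of the log2 fold change, KLHL3-KI minus WT (x axis), for all 16970 tested genes (grey) and the 81 tested ribosomal protein genes (red line). The members form a narrow peak near 0, and the bin farthest right, past 0.8, holds Rps27l.

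The sign of this small shift depended on the scaling. Of the 81 members 58 had a positive and 23 a negative log2 fold change on the deposited scale, but 17 were positive after quantile normalization, 18 with equal total signal per library, and 26 with haemoglobin, immunoglobulin and mitochondrial genes removed. The median of all genes itself moved to -0.098, -0.16 and -0.14 in these settings. Relative to that median, the members' median was 0.075 on the deposited scale, -0.0083 after quantile normalization, and 0.058 and 0.063 in the others. The signs also followed 1 library at a time: 73 members were positive without WT replicate 1 and 76 without KLHL3-KI replicate 2, against 43 without WT replicate 2 and 47 without KLHL3-KI replicate 1. Within genotypes the genes moved together as well: 75 of 81 members were higher in WT replicate 1 than in WT replicate 2 (median log2 difference 0.14, where 51.8% of all genes were higher), and 63 of 81 were higher in KLHL3-KI replicate 1 than in replicate 2 (median 0.097, 45.6% of all genes). The difference between 2 libraries of 1 genotype was thus larger than the median difference between genotypes.

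Counted without a model, both KLHL3-KI values lay above both WT values for 28 members (34.6%), where this held for 32.8% of all tested genes. Both lay below for 3 members (3.7%), Rps9, Rps13 and Rps4l, where this held for 31.9% of all genes. The other 50 members overlapped between the genotypes. The share above was near that of all genes, and the share below was small.

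**Figure D2:**
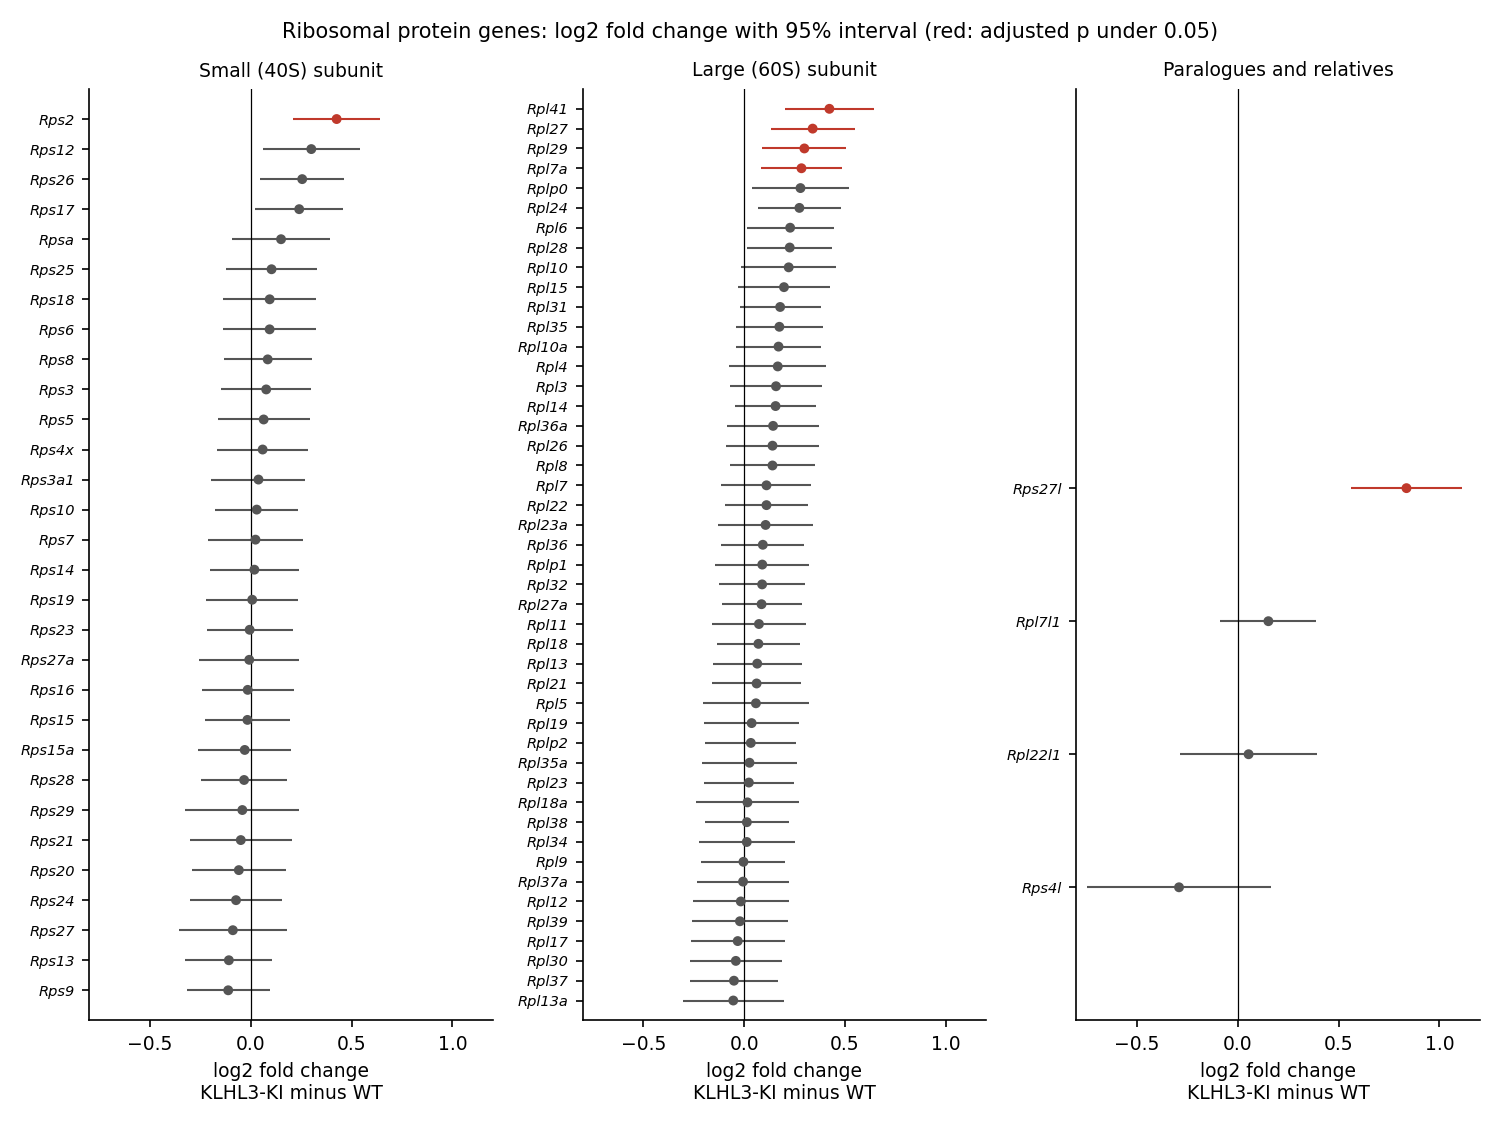
Log2 fold change, KLHL3-KI minus WT (x axis), with the 95% interval from limma for 80 of the 81 tested members (y axis), by subunit; red marks the 6 with an adjusted p under 0.05. Most intervals cross 0, 58 points lie to the right of it (17 after quantile normalization, 18 with equal total signal), and Rps27l lies farthest from it.

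Rps27l had the largest fold change of the family. It is a paralogue of Rps27, a zinc-finger protein of the small subunit, and is known as a p53 target. To show how far reads of the pair can be told apart, their coding sequences are given with the bases that differ in capitals. They were read from GENCODE M21 transcripts of build GRCm38, with Rps27 on chromosome 3 and Rps27l on chromosome 9.
Rps27: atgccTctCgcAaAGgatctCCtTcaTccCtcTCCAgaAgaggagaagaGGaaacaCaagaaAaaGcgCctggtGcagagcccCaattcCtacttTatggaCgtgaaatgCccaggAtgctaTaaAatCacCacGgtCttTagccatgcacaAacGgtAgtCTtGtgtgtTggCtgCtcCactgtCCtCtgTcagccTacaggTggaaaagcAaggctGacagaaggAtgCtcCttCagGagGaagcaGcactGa
Rps27l: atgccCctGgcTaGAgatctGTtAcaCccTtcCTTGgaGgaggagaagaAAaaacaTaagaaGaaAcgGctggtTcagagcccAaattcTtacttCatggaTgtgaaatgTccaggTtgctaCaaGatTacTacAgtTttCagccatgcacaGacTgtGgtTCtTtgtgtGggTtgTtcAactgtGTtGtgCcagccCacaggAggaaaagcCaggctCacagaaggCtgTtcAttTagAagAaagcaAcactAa
The sequences are 255 bases each and differ at 61 positions (76.1% identical), which touch 54 of 85 codons, and the longest run that both share is 11 bases.

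Rps27l (ENSMUSG00000036781) was at 29.6 and 25.7 in WT against 46.9 and 53.6 in KLHL3-KI, on 265 and 248 reads and on 426 and 550 reads. Both KLHL3-KI libraries stood well above both WT libraries. Its log2 fold change was 0.84 with an SE of 0.12 (limma, adjusted p = 0.00115), a ratio of 1.81 between the group means. It kept its call in all 19 alternative settings, with log2 fold changes from 0.67 to 0.94 and adjusted p from 6.27e-05 to 0.0271. Rps27 (ENSMUSG00000090733) was at 577 and 513 in WT against 567 and 462 in KLHL3-KI, with groups that overlapped and a log2 fold change of -0.088 (SE 0.12, adjusted p = 0.634).

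Per kilobase of transcript, Rps27l stood at 3.55% and 3.47% of the level of Rps27 in the WT libraries and at 5.72% and 8.01% in the KLHL3-KI libraries. This ratio lies within a library and does not depend on how libraries are scaled. The groups did not overlap, and the two-sided exact permutation p was 0.333, the smallest that 2 against 2 libraries can give.

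**Figure D3:**
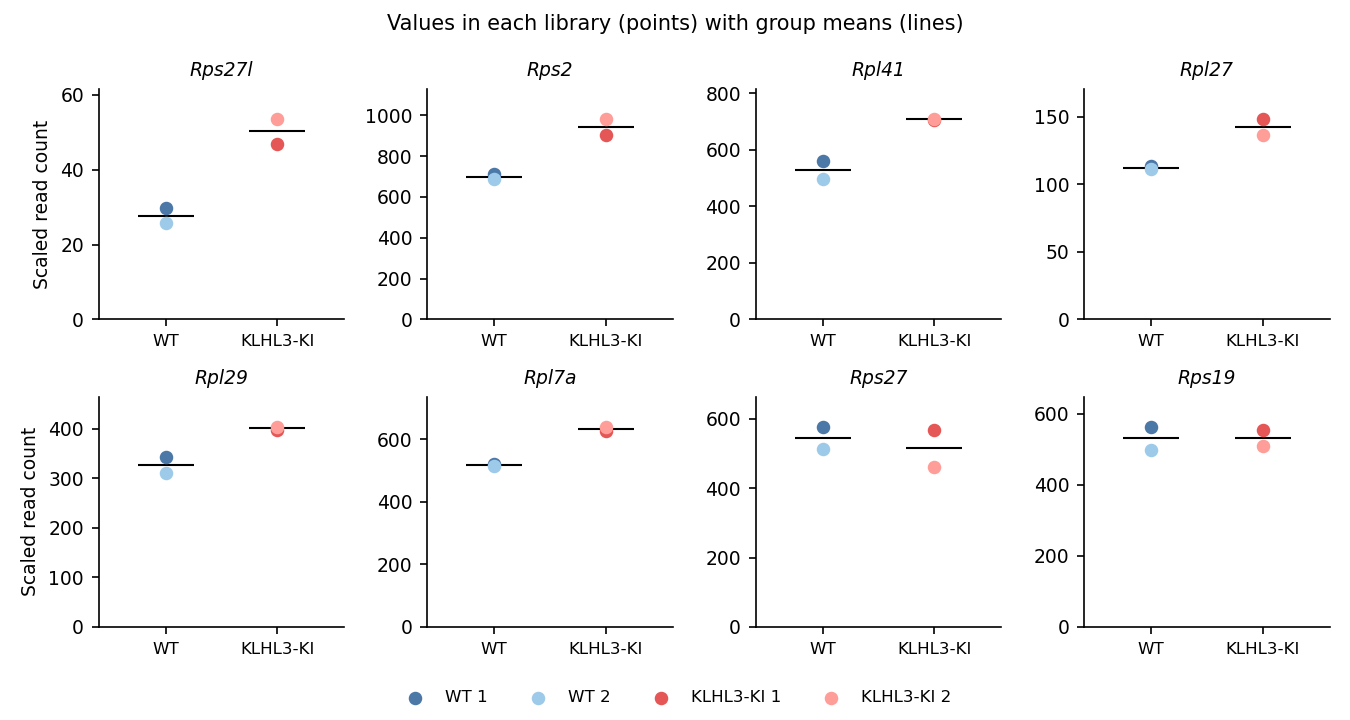
Scaled read count (y axis, from 0) in each library (points; WT blue, KLHL3-KI red) with the group mean (line) for the 6 members that rose, and for Rps27 and Rps19 as genes that did not pass. The KLHL3-KI points lie above the WT points in the first 6 panels and overlap them in the last ones.

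Of all tested genes 22.8% passed, and among the 31 small-subunit genes Rps2 alone did. It encodes a conserved protein near the mRNA entry channel. Rps2 (ENSMUSG00000044533) was at 711 and 689 in WT against 902 and 982 in KLHL3-KI. Both KLHL3-KI values stood above both WT values, by more than the libraries of a genotype differed. Its log2 fold change was 0.43 with an SE of 0.097 (limma, adjusted p = 0.0116). The call was lost with equal total signal (limma adjusted p = 0.0557), with quantile normalization (0.0532) and without the mean-variance trend of limma. It was also lost without WT replicate 1, WT replicate 2 or KLHL3-KI replicate 2. The sign stayed the same in each.

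The next genes of the small subunit did not pass. Rps12, a protein of the subunit's head region, was at 449 and 419.8 in WT against 583 and 491 in KLHL3-KI, a log2 fold change of 0.30 (SE 0.11, adjusted p = 0.0745). Rps26, which sits at the mRNA exit channel and is mutated in Diamond-Blackfan anaemia, was at 319 and 289.8 in WT against 364 and 362 in KLHL3-KI (0.26, SE 0.092, adjusted p = 0.0759). Both KLHL3-KI values of each exceeded both WT values. Without KLHL3-KI replicate 2, Rps12 passed (adjusted p = 0.0259).

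On the deposited scale most of the other small-subunit genes lay near 0, with a median log2 fold change of 0.019 for the 31. On that scale 5 had both KLHL3-KI values above WT, 2 below, and 24 overlapped. Both values lay above for 32.8% of all tested genes and below for 31.9%. Among the lowest were Rps9 and Rps13, both conserved in every domain of life. Rps9 was at 611 and 600.3 in WT against 544 and 578 in KLHL3-KI (-0.11, adjusted p = 0.419) and Rps13 at 395 and 349 in WT against 344 and 344 in KLHL3-KI (-0.11, 0.458). Neither passed on the deposited scale. Rps9 passed as lower after quantile normalization (adjusted p = 0.0186). With equal total signal both passed as lower (0.0354 and 0.0423), and with haemoglobin, immunoglobulin and mitochondrial genes removed Rps9 did (0.0493).

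Other small-subunit genes with a negative sign were Rps24, at 919.8 and 864 in WT against 893 and 805 in KLHL3-KI (-0.072, adjusted p = 0.647), and Rps20, at 548 and 489.9 in WT against 527 and 469 in KLHL3-KI (-0.058, 0.723). The values of each overlapped between genotypes. Rps23, which lines the decoding centre, was at 317 and 286 in WT against 291 and 309 in KLHL3-KI (-0.0048), and Rps27a, whose product is made as a fusion with ubiquitin, at 486 and 417 in WT against 477 and 421 in KLHL3-KI (-0.0068). These were among the 4 members with the smallest differences of all, with 95% intervals of -0.22 to 0.21 and -0.25 to 0.24 on the log2 scale. The row of Rps23 held 60.4% of the sum over the gene and its near-identical copies, which are described further on. That sum was 504 and 473 in WT against 511 and 506 in KLHL3-KI, with both KLHL3-KI values slightly above both WT values.

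Of the 46 large-subunit genes 4 rose, where 15.2% of all tested genes were called higher. Rpl41 (ENSMUSG00000093674), which encodes the shortest ribosomal protein, was at 559.9 and 497 in WT against 707 and 709 in KLHL3-KI. The KLHL3-KI libraries were nearly equal and above both WT libraries, with a log2 fold change of 0.42 and an SE of 0.098 (limma, adjusted p = 0.0127). The call was lost with equal total signal (limma adjusted p = 0.0586), with quantile normalization (0.0521) and without the mean-variance trend of limma. It was also lost without WT replicate 2.

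Rpl27 (ENSMUSG00000063316), mutated in rare cases of Diamond-Blackfan anaemia, was at 113 and 111 in WT against 148 and 137 in KLHL3-KI (0.34, SE 0.092, limma adjusted p = 0.0265). Rpl29 (ENSMUSG00000048758), a large-subunit protein that mice can lose and survive, was at 342 and 310.4 in WT against 398 and 404 in KLHL3-KI (0.30, SE 0.093, 0.0453). Rpl7a (ENSMUSG00000062647), whose introns host small nucleolar RNAs, was at 522 and 516 in WT against 625 and 639.9 in KLHL3-KI (0.28, SE 0.089, 0.0477). In all 3 genes the groups were apart, but the calls lay near the threshold. Rpl29 and Rpl7a lost theirs without any 1 library (adjusted p 0.0786 to 0.256 and 0.0934 to 0.188), and Rpl27 without WT replicate 1 (0.112), WT replicate 2 (0.153) or KLHL3-KI replicate 1 (0.0999). None of the 3 passed with equal total signal (0.173, 0.269 and 0.314) or without the mean-variance trend of limma.

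Over the 46 large-subunit genes the median log2 fold change was 0.091 on the deposited scale. On that scale both KLHL3-KI values lay above WT for 21, below for 0 and overlapped for 25. Of all tested genes, 32.8% lay above in this way and 31.9% below. Rpl24, a protein of the bridge between the subunits, was next to the threshold at 211 and 191 in WT against 244 and 242 in KLHL3-KI (0.27, SE 0.092, adjusted p = 0.0609). At the other end, Rpl13a was at 1222 and 1087 in WT against 1182 and 1043 in KLHL3-KI (-0.054, adjusted p = 0.765), with groups that overlapped. Rpl9 (519 and 482 in WT against 511 and 488 in KLHL3-KI) and Rpl37a (509.6 and 466 in WT against 515 and 458 in KLHL3-KI) differed by -0.0035 and -0.0054, the smallest differences of the large subunit. By evolutionary class, the 18 large-subunit genes shared by all domains of life had a median of 0.11 with 0 called, and the 28 found in eukaryotes or archaea 0.090 with 4 called. In the small subunit the medians were -0.014 for 15 genes shared by all domains (1 called) and 0.035 for 16 others (0 called). Beside these counts, limma called 15.2% of all tested genes higher and 7.56% lower. The classes were not tested against each other.

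The ratio of large-subunit to small-subunit mRNA was slightly higher in both KLHL3-KI libraries. The summed value of the 46 large-subunit genes divided by that of the 31 small-subunit genes was 1.217 and 1.228 in WT against 1.262 and 1.291 in KLHL3-KI. The groups were apart, and the difference of 0.054 between the means had a two-sided exact permutation p of 0.333, the smallest that this design allows. The ratio is taken within a library and does not depend on scaling. The median of the large subunit exceeded that of the small subunit in each of the 19 alternative settings. Settings that only rescale the libraries or change the variance model could hardly alter this. With 1 library left out at a time, the excess was 0.039 to 0.10 on the log2 scale. The sums hold read counts and are not corrected for transcript length.

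**Figure D4:**
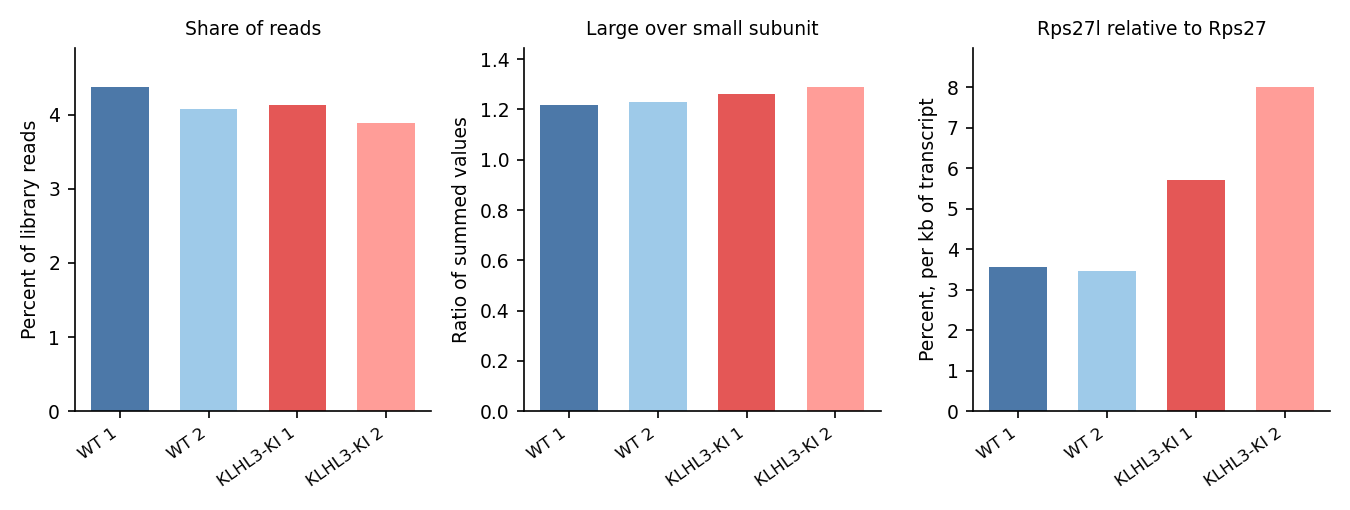
Values per library (bars from 0; WT blue, KLHL3-KI red): percent of library reads in the 82 ribosomal protein genes, ratio of summed values of large-subunit over small-subunit genes, and Rps27l as percent of Rps27 per kilobase of transcript. The first overlaps between genotypes, and the KLHL3-KI bars are the higher ones in the others.

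The whole family took 4.38% and 4.09% of reads in WT against 4.13% and 3.88% in KLHL3-KI, or 4.23 ± 0.209% and 4.01 ± 0.172% (SD, n = 2 each). These shares overlapped, and the exact permutation p was 0.667 (two-sided). On the deposited scale the summed value was 41827 and 38058 in WT against 43574 and 41349 in KLHL3-KI, which also overlapped. The share and the summed value differed in opposite directions, each with values that overlapped between the genotypes.

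The stalk recruits the elongation factors to the large subunit, and none of its 4 genes passed. Rplp0, its anchor, was at 1368 and 1246 in WT against 1532 and 1639 in KLHL3-KI, a log2 fold change of 0.28 (SE 0.11, adjusted p = 0.0897), and was called by DESeq2 (0.0373) but not by limma or edgeR. Both KLHL3-KI values of Rplp0 exceeded both WT values. Rplp1 was at 852 and 766 in WT against 900.0 and 822 in KLHL3-KI (0.090) and Rplp2 at 279.6 and 324 in WT against 301 and 315 in KLHL3-KI (0.033), which overlapped. Rpl12, which binds beside the stalk, was at 40.7 and 42.5 in WT against 42.3 and 39.9 in KLHL3-KI (-0.017), with most of its reads on a copy, as given further on.

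Rpl5 and Rpl11 form a particle with the smallest RNA of the large subunit, and when free they bind MDM2, the ligase of p53. Rpl11 was at 409 and 353 in WT against 416 and 384 in KLHL3-KI (0.073, SE 0.10, adjusted p = 0.650) and Rpl5 at 102 and 81.6 in WT against 95.2 and 94.95 in KLHL3-KI (0.058, SE 0.12, 0.756). The genotypes overlapped for both genes.

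Of the 19 genes mutated in Diamond-Blackfan anaemia 1 rose (Rpl27) and 0 fell, where 15.2% of all tested genes were called higher and 7.56% lower. Their median log2 fold change was 0.058, beside 0.065 over all members. Rps19, the gene most often mutated in that disease, was at 564 and 498 in WT against 556 and 511 in KLHL3-KI, a log2 fold change of 0.0078 (SE 0.10, 95% interval -0.22 to 0.24, adjusted p = 0.969). Its values overlapped between the genotypes. For 19 of 19 genes the 95% interval of the fold change lay within 1.5-fold, while red cell precursor markers had a median log2 fold change of 2.68 in the same libraries.

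Of the other paralogues none passed. Rpl22l1, the paralogue of Rpl22, which is needed in T cell development, was at 41.3 and 43.1 in WT against 51.9 and 37.0 in KLHL3-KI (0.054, SE 0.15, adjusted p = 0.828), and KLHL3-KI replicates lay on both sides of WT. Per kilobase it stood at 26.5% and 27.8% of Rpl22 in WT against 29.7% and 23.0% in KLHL3-KI. Rpl7l1, a relative of Rpl7, was at 67.0 and 59.5 in WT against 67.6 and 73.0 in KLHL3-KI (0.15, adjusted p = 0.336), or 3.83% and 3.74% of Rpl7 per kilobase in WT against 3.64% and 4.18% in KLHL3-KI. Rps4l, a relative of the X-linked Rps4x, was scarce, at 3.80 and 4.26 in WT against 3.30 and 2.92 in KLHL3-KI (-0.29, SE 0.20, adjusted p = 0.341). Its interval of -0.75 to 0.17 was too wide to bound the change. Rpl39l, a paralogue known from testis, had a value of 0.448 in WT replicate 1 and of 0 in the other 3 libraries.

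Ribosomal protein genes have many near-identical processed copies in the genome, and reads can be divided among them. Rows for 159 copies (at least 95% identity over at least 80% of the coding sequence, found in GENCODE M21) stood beside 55 of the members. No such row was found for 27 members. Among these is Rps4l, which had no complete coding sequence in that annotation and was not searched. For 70 members, with the unsearched Rps4l counted in, at least 90% of the summed value lay on the gene's own row. For Rpl12, Rpl5 and Rpl10 the copies held more than the gene, so the levels of these 3 rows are uncertain. Other rows were affected in part, such as Rpl27a with an own share of 52.9% and Rps23 with 60.4%.

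The row of Rpl12 held 5.3% of the sum over the gene and its copies, since Gm10275, identical over 498 bases, was at 777 and 704 in WT against 764 and 694 in KLHL3-KI. For Rpl5 the own share was 11.0%, with Gm15500, identical over 894 bases, at 796 and 698 in WT against 774 and 756 in KLHL3-KI. For Rpl10, which joins the large subunit late and completes it, the own share was 24.4%, with Rpl10-ps3, identical over 645 bases, at 615 and 537 in WT against 613 and 618 in KLHL3-KI. Summed over gene and copies, Rpl12 was at 819 and 748 in WT against 807 and 736 in KLHL3-KI, Rpl5 at 898 and 779.7 in WT against 869 and 851 in KLHL3-KI and Rpl10 at 792 and 716 in WT against 839 and 808 in KLHL3-KI. The sums of Rpl12 and Rpl5 overlapped between the genotypes, and those of Rpl10 were higher in both KLHL3-KI libraries. Added up in this way, 4 members rose and 0 fell: Rps27l, Rps2, Rpl29 and Rpl41. Rpl27 (adjusted p = 0.0549) and Rpl7a (0.0532) no longer passed. Rpl27-ps3 and Gm11518, both identical to Rpl27 over 411 bases, held the same value as each other in every library, 23.0 and 22.4 in WT against 26.3 and 23.9 in KLHL3-KI. The copy of Rps12 named Rps12-ps3, identical over 399 bases, was at 36.1 and 31.4 in WT against 3.30 and 44.7 in KLHL3-KI, so KLHL3-KI replicate 1 stood apart there, the library in which the Rps12 row itself was highest.

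**Figure D5:**
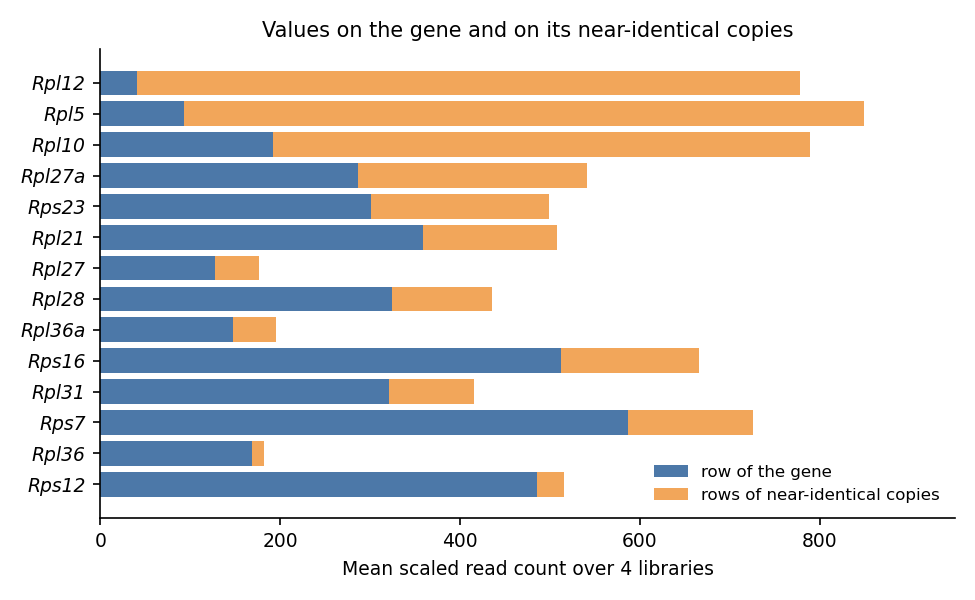
Mean scaled read count over the 4 libraries (x axis) on the row of the gene (blue) and on the rows of its near-identical copies (orange), for the 14 members with the lowest own share. For Rpl12, Rpl5 and Rpl10 the copies hold more than the gene.

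Promoter letters were searched for short motifs, and a gene counted where any of its entries held one. Among 61 members with a promoter entry (RefSeq, GRCm38.p6, 250 bases before to 50 after the start), the ETS-type motif CCGGAAG occurred on either strand in 26 (42.6%), beside 9.93% of 27025 genes with an entry. The E-box CACGTG occurred in 6 members (9.84%) and in 8.09% of all genes, and the TATA-type motif TATAAA in 7 members (11.5%) and in 15.7%. To show the starts of the genes with the largest changes beside Rps27, windows of 100 bases before and 20 after the start are printed on the strand of the gene, with matches to these motifs in capitals. They lie at chr9:66945986-66946105 (plus strand) for Rps27l, chr17:24719963-24720082 (plus) for Rps2, chr10:128549149-128549268 (minus) for Rpl41 and chr3:90213629-90213748 (minus) for Rps27.
Rps27l: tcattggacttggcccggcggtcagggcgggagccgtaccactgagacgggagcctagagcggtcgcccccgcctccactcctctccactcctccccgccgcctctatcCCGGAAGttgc
Rps2: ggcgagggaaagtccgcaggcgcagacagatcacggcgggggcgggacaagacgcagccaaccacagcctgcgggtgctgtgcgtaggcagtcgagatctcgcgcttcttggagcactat
Rpl41: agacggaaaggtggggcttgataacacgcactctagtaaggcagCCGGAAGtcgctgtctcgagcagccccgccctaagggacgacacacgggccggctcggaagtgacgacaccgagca
Rps27: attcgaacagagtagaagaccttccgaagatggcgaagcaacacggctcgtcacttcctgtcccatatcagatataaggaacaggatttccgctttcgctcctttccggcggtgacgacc
Rps27l has 2 starts in the table, of which the first is printed, and the entry of the other holds none of these motifs. Rps27l (at the printed start) and Rpl41 carry CCGGAAG inside the printed window. Rps2 holds CCGGAAG and TATAAA in the part of its entry outside the window, while the entry of Rps27 holds none of these motifs. Of the other members that rose, Rpl27 and Rpl7a hold none of these motifs in their entries either, and Rpl29 has no entry. The matches describe sequence only, and binding was not measured.

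Genes that act with the ribosomal proteins were read from lists of their own, to be set beside the 15.2% of all tested genes called higher and the 7.56% called lower. Among other ribosome components, Rpl36al (0.26, limma adjusted p = 0.0896), the scaffold Rack1 (0.12, 0.416) and Fau (-0.14, 0.335), which encodes a ubiquitin-like fusion, did not pass. Fau passed as lower after quantile normalization, with equal total signal, and with haemoglobin, immunoglobulin and mitochondrial genes removed (lowest limma adjusted p = 0.0306).

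Of 13 elongation factors and other genes with pyrimidine-tract mRNAs, 3 rose and 0 fell, with a median log2 fold change of 0.14. Eef1d, an exchange factor subunit, was at 108 and 100.1 in WT against 143 and 157 in KLHL3-KI (0.52, limma adjusted p = 0.00412), Hnrnpa1, an RNA-binding protein, at 296 and 275 in WT against 377 and 449 in KLHL3-KI (0.52, 0.00708), and the poly(A)-binding protein gene Pabpc1 at 1104 and 1149 in WT against 1355 and 1478 in KLHL3-KI (0.33, 0.0453). Eef1g did not pass (0.20, 0.206). Without WT replicate 2 the count was 0.

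Ribosome assembly factors process the RNA and join it with the proteins. Of 43 such genes 12 rose and 0 fell, where 15.2% of all tested genes were called higher and 7.56% lower, and 34 had both KLHL3-KI values above both WT values, where 32.8% of all genes did. Their median log2 fold change was 0.27, beside -0.010 for all genes. Nucleolin (Ncl) was at 279 and 271 in WT against 399 and 501 in KLHL3-KI (0.70, SE 0.12, limma adjusted p = 0.00230), the pseudouridine synthase Dkc1 at 42.0 and 37.2 in WT against 60.1 and 72.4 in KLHL3-KI (0.73, 0.00260), its partner Nhp2 at 24.2 and 18.9 in WT against 36.5 and 43.3 in KLHL3-KI (0.87, 0.00278) and nucleophosmin (Npm1) at 340.0 and 316 in WT against 449 and 513 in KLHL3-KI (0.55, 0.00409). The KLHL3-KI values of these 4 genes stood above WT in both libraries. The count of rises ran from 2 without WT replicate 2 to 21 without KLHL3-KI replicate 1, with 6 without WT replicate 1 and 7 without KLHL3-KI replicate 2. It was 7 with 2 falls after quantile normalization or with equal total signal. A difference between the assembly factors and the ribosomal proteins was not tested. The 10 cell division genes rose in the same libraries, and their part in the result was not tested.

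Of 14 genes of RNA polymerase I and its factors 3 rose and 0 fell (median 0.26): Taf1d (0.40, limma adjusted p = 0.0191), Ubtf (0.34, 0.0304) and Rrn3 (0.38, 0.0374), while Polr1d did not pass (0.28, 0.0754). Of 8 chaperones of ribosomal proteins 3 rose and 0 fell (median 0.19): Nap1l4 (0.35, 0.0251), Heatr3 (0.46, 0.0262) and Bccip (0.42, 0.0381). Both counts were 0 without WT replicate 1, WT replicate 2 or KLHL3-KI replicate 2, and with each of the scalings by quantile, by equal total signal and with abundant genes removed.

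Among 14 regulators of ribosomal protein synthesis 3 rose and 1 fell (median 0.13). Eif4ebp1, an inhibitor of cap-dependent translation that mTOR switches off, was at 18.6 and 15.9 in WT against 29.0 and 34.5 in KLHL3-KI (0.84, SE 0.14, limma adjusted p = 0.00241). Myc was at 35.4 and 44.6 in WT against 51.3 and 65.2 in KLHL3-KI (0.53, 0.0298). Mycn was low, at 1.34 and 1.45 in WT against 4.41 and 3.12 in KLHL3-KI (0.98, 0.0152). Rps6kb2, a kinase of the small-subunit protein Rps6, was at 32.0 and 41.0 in WT against 27.3 and 25.1 in KLHL3-KI (-0.45, 0.0440). The calls of Myc and Rps6kb2 were lost without WT replicate 2 (0.0563 and 0.308) or KLHL3-KI replicate 2 (0.125 and 0.112), that of Myc also without WT replicate 1 (0.216), and that of Mycn without WT replicate 1 (0.0907), WT replicate 2 (0.0884) or KLHL3-KI replicate 1 (0.0608). Eif4ebp1 kept its call without each library in turn.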

How the data were processed

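Trimmomatic 0.38, Bowtie2, RSEM 1.3.0, edgeR and build GRCm39 are named per the submitters' processing notes, with no role, order or annotation. The values deposited by the authors are a normalized signal for every gene and library. Every value (100% within 0.001) was a whole multiple of 1 unit per library, taken as 1 read. This unit was worth 0.112 and 0.104 in WT against 0.110 and 0.0974 in KLHL3-KI, and reads were recovered on that basis. Whether they are rounded estimates from RSEM is not stated. Symbols were matched by Ensembl identifier to a GRCm38 annotation (23605 genes, 99.3%). Genes with a mean of at least 1 were tested with limma 3.58.1 in R 4.3.3 on log2(value + 1), with a mean-variance trend, two-sided, at an adjusted p of 0.05, over all 4 libraries. Recovered reads were also tested with edgeR 4.0.16 (quasi-likelihood) and DESeq2 1.42.0. The limma and edgeR fits were checked on simulated data. Copies were found with blastn 2.17.0.

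Members and lists were chosen with earlier results of these data known. Full values are given for the 8 highest, 8 lowest and 4 smallest log2 fold changes, paralogues, stalk, Rpl5, Rpl11, Rps19 and Rps26, and for genes near the threshold or with copies, chosen after their values were seen; other lists name up to 4 genes by lowest p. Of the genes so chosen, 2 are not reported here. Precision is limited by n = 2 per group and, for Rps4l and Rpl39l, by few reads.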

Additional observations from a re-analysis of the deposited data

How the results depend on the processing

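Of the members, 1 was called higher and 2 lower after quantile normalization, 1 and 3 with equal total signal, and 3 and 1 with haemoglobin, immunoglobulin and mitochondrial genes removed, where the median log2 fold change of the members was -0.11, -0.10 and -0.073. All genes called lower were 2369, 3130 and 2965 there. Without a variance trend 1 member was higher and 659 genes were lower, and DESeq2 called 781 lower. Leaving out 1 library gave 1 to 4 members higher, a member median of 0.013 to 0.13, 1386 to 2903 genes higher and 267 to 1627 lower; the lone library of a group is then assumed to vary like the other group. The causes were not tested. Other pseudocounts, filters, median-ratio rescaling, edgeR and scaling factors set without the ribosomal protein genes gave 4 to 6 members higher and 0 lower. Adding near-identical copies, chosen after seeing the data, gave 4 and 0.

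The labels do not say that equal replicate numbers pair the libraries. These numbers follow the sample titles, and the library names carry partly other numbers. Same-numbered deviations had a correlation of -0.032 across 16970 genes. This cannot exclude a pairing, since each genotype gives only 1 difference. Of the 81 tested members, 75 in WT and 63 in KLHL3-KI were higher in replicate 1. A fit with the replicate number as a block gave 7 members higher (Rps12 added) and 0 lower. Of 607 values of 32 named members under the alternatives, 502 kept sign and call, 39 lost the call, 9 gained it, and 57 changed sign with no call in either setting. Depth is no limit for most members, but Rps4l and Rpl39l rest on few reads.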
